A study of Mus musculus with 10 samples.

Results

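The circadian clock genes Per1, Per2, Per3, Cry1, Cry2, Nr1d1, Nr1d2, Dbp, Tef and Clock were followed across overload of the mouse plantaris, an ankle extensor muscle. Each gene was represented by its brightest probe set, over all arrays, that carries exactly 1 gene symbol in the array annotation. By that rule 9 of the 10 genes had a value, among 22180 genes in all. The probe set of Per2 carries 2 symbols, so Per2 was not analysed here. RNA came from male C57BL/6 mice and was measured on Affymetrix Mouse Gene 2.1 ST arrays, with RNA of 4 plantaris muscles pooled for each array and 2 pools in each of 5 groups. Muscles had been overloaded for 10 d while a PDGF inhibitor was given, overloaded for 10 d with none, overloaded for 3 d with the inhibitor, overloaded for 3 d with none, or not overloaded. Overload was produced by synergist ablation, in which the muscles that share the work of the plantaris are removed so that it bears their load. PDGF is a growth factor for fibroblasts and other stromal cells. The sources used here do not give the name of the inhibitor, the age of the mice or the hour of harvest, so group and time of day cannot be told apart.

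The mammalian clock is a feedback loop of transcription that runs in nearly every cell. CLOCK, or its relative NPAS2, pairs with BMAL1, the product of Arntl, and the pair switches on the Per, Cry and Nr1d genes and the output genes Dbp and Tef through E-boxes. PER and CRY proteins then repress the pair, while the nuclear receptors NR1D1 and NR1D2 (REV-ERB alpha and beta) repress Arntl and the ROR receptors activate it. DBP, TEF and HLF act on D-boxes, where NFIL3 opposes them. Transcripts of the Per and Nr1d genes and of Dbp peak at another phase of the day than Arntl, and skeletal muscle has a well-described clock of its own.

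The promoters of 9 of the 10 genes were in the RefSeq table used, each as 250 bases before to 50 bases after a transcription start (assembly GRCm38.p6). These were searched on both strands for the E-box CACGTG, the variant CACGTT, the D-box TTANGTAA, the ROR elements TAGGTCA and TGGGTCA, and the cAMP response element TGACGTCA. CACGTG was found in a promoter of 3 of the 9 genes, Per1, Cry1 and Tef, and occurs in 7.15% of the 32851 promoters of the table. CACGTT was found in 3, Cry1, Cry2 and Nr1d1, against 4.68% of all promoters. TTANGTAA was found in Per3 alone among them, where it occurs 2 times, against 2.32% of all promoters. These gene counts take a match in any promoter of a gene, while the percentages count single promoters. Per1, Tef and Clock have more than 1 promoter in the RefSeq table. None of the searched elements was found in the promoters of Dbp, Nr1d2 or Clock, and Dbp and Nr1d2 changed in both 3 d groups. The ROR elements and the cAMP response element were found in 0 of the 9 genes. Sites outside the bases searched would not be seen. The 5 promoters below hold a matched element and belong to Per3, Tef, Ciart, Arntl and Nfil3, whose transcripts changed in at least 1 of the 3 d groups. They are examples, and whether element and change go together was not tested. Ciart encodes a further repressor of the CLOCK and BMAL1 pair. The capitals mark the matched element, which is a match of letters and not a site shown to be bound. The Per3 promoter (chr4:151044616-151044915, minus strand) has D-boxes that begin 205 and 158 bases before the start.
Per3: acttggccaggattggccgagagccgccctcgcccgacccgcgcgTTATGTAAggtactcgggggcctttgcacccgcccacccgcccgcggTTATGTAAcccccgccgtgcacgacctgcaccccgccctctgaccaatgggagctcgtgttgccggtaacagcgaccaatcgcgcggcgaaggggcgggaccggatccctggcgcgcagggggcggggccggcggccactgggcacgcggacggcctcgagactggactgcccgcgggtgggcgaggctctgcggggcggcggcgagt
Both Tef promoters of the table hold an E-box. It begins 138 bases before the start in that at chr15:81811164-81811463 and 127 bases before in that at chr15:81802423-81802722 (both plus strand), printed here.
Tef: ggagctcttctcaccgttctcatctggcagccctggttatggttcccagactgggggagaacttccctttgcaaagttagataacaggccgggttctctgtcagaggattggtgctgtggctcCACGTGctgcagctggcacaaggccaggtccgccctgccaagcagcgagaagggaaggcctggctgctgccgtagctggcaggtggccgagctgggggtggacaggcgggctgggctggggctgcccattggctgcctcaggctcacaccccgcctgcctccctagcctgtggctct
The Ciart promoter (chr3:95882179-95882478, minus strand) has 3 E-boxes, which begin 116, 58 and 44 bases before the start.
Ciart: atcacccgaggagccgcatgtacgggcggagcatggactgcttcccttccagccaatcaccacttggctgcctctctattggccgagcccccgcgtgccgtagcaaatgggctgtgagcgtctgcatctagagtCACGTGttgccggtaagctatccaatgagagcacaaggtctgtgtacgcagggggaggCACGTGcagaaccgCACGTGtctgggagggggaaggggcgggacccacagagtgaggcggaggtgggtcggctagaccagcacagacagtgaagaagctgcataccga
One of the 2 Arntl promoters (chr7:113207261-113207560, plus strand) has the ROR element TAGGTCA, to which ROR and NR1D receptors bind, 30 bases after the start.
Arntl: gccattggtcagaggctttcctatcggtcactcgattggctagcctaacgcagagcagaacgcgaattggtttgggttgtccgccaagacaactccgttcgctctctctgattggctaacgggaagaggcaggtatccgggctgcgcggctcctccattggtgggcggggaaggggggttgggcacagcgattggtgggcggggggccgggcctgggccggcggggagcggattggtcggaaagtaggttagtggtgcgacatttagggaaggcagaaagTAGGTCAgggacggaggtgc
The Nfil3 promoter (chr13:52980990-52981289, minus strand) has the same element on the opposite strand, beginning 12 bases before the start. TAGGTCA occurs in 2.61% of all promoters.
Nfil3: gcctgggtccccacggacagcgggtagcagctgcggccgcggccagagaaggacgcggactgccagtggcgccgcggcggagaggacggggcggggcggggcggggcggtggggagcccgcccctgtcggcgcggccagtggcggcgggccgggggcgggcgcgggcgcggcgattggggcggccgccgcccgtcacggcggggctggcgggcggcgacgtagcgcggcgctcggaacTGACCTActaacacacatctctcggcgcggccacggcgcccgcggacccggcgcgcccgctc

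Pools of a group correlated at r = 0.989 to 0.992 over genes. Genes of muscle fibres were bright in every group: the lowest group mean of the 8 fibre markers was that of Mb, the oxygen store myoglobin, in 3 d inhibited muscle at 10.06 log2 units. Shifting every array to a common median over the tested genes would lower all changes against no overload by 0.19 log2 units at 3 d and 0.17 at 10 d without the inhibitor, and by 0.12 at 3 d and 0.08 at 10 d with it. A gene is said to have changed where its limma adjusted p was under 0.05 over all 22180 genes, and ± gives the standard error of a log2 change. Every level below is a log2 value of 1 probe set, so levels of different genes cannot be set against each other. The comparisons with no overload share the same 2 unloaded pools.

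After 3 d of overload 5 clock genes fell relative to no overload: Dbp, Per3, Tef, Nr1d2 and Cry2. With the inhibitor, 4 of them, Dbp, Per3, Nr1d2 and Tef, fell relative to no overload. Arntl, whose protein drives the genes that fell, rose in both 3 d groups. At 10 d none of the 9 clock genes passed the test against no overload, with or without the inhibitor. The 5 of 9 lower calls at 3 d stand beside 8.18% of all genes called lower in that comparison (17.5% called in either direction). The 4 of 9 with the inhibitor stand beside 6.51% of all genes called lower (14.2% in either direction). The median change of the 9 clock genes at 3 d was -0.74 log2 units without the inhibitor and -0.50 with it, where the medians over all genes were -0.04 and -0.00.

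Dbp encodes a transcription factor of the PAR bZIP family that carries the daily rhythm to D-box genes. It read 8.87 and 8.88 log2 units in the 10 d inhibited pools and 9.06 and 9.03 in the 10 d overload pools. At 3 d it read 6.51 and 6.94 with the inhibitor and 7.11 and 7.86 without it, against 9.06 and 9.22 without overload. All 4 pools of 3 d muscle lay below every other pool. Dbp was 3.15-fold lower at 3 d than without overload (log2 change -1.66 ± 0.24, adjusted p = 0.00226), and 5.33-fold lower at 3 d with the inhibitor (-2.42 ± 0.24, adjusted p = 6.85e-04). Without pool 1 of the 3 d overload group, the lower of the pair, the change at 3 d was -1.28 (adjusted p = 0.0125).

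Tef encodes a second PAR bZIP factor that binds the same D-boxes. Its levels were 5.20 and 5.37 in the 10 d inhibited pools and 5.37 and 5.33 in the 10 d overload pools. At 3 d they were 4.62 and 4.90 with the inhibitor and 4.50 and 4.64 without it, against 5.65 and 5.44 without overload. The 3 d pools were again the 4 lowest. Tef fell at 3 d (log2 change -0.97 ± 0.15, adjusted p = 0.00354) and at 3 d with the inhibitor (-0.78 ± 0.15, adjusted p = 0.0120). The call with the inhibitor was lost without pool 1 of the 3 d inhibited group (-0.64, adjusted p = 0.0855) or pool 1 of the unloaded group (-0.68, adjusted p = 0.0775). A second, dim Tef probe set, between 2.55 and 3.97 log2 units, differed from no overload by -0.20 at 10 d with the inhibitor, -0.51 at 10 d, -0.93 at 3 d with the inhibitor and -0.84 at 3 d.

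Per3 and Per1 encode PERIOD proteins, which enter the repressor complex with the cryptochromes. Per3 read 6.80 and 6.80 in the 10 d inhibited pools and 7.03 and 6.89 in the 10 d overload pools. At 3 d it read 4.90 and 5.60 with the inhibitor and 5.21 and 5.77 without it, against 6.84 and 6.96 without overload. No 3 d pool came within 1 log2 unit of any other pool. Per3 fell at 3 d (-1.41 ± 0.25, adjusted p = 0.00550) and at 3 d with the inhibitor (-1.65 ± 0.25, adjusted p = 0.00383). Per1, which also responds quickly to cAMP and glucocorticoids, did not pass the test at 3 d. Whether its change differed from that of Per3 was not tested. It read 7.41 and 6.89 in the 10 d inhibited pools, 7.75 and 7.54 in the 10 d overload pools, 7.84 and 7.52 in the 3 d inhibited pools and 7.25 and 7.41 in the 3 d overload pools, against 7.87 and 7.69 without overload. The lowest pool of Per1 was pool 2 of the 10 d inhibited group. Both 3 d overload pools lay below both unloaded pools, while the 3 d inhibited pools overlapped the unloaded ones. The change of Per1 was -0.45 ± 0.20 at 3 d (adjusted p = 0.186) and -0.10 ± 0.20 at 3 d with the inhibitor (adjusted p = 0.821).

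The cryptochromes Cry2 and Cry1 are the strongest repressors of the loop. Cry2 read 6.90 and 6.97 in the 10 d inhibited pools and 6.93 and 6.94 in the 10 d overload pools. At 3 d it read 6.56 and 6.39 with the inhibitor and 5.99 and 6.18 without it, against 6.76 and 6.88 without overload. The 3 d overload pools were the lowest, and the 3 d inhibited pools lay between them and the rest. Cry2 fell at 3 d (-0.74 ± 0.14, adjusted p = 0.00664), and with the inhibitor the change of Cry2 was -0.34 ± 0.14 (adjusted p = 0.144). Cry1 read 5.02 and 5.55 in the 10 d inhibited pools, 5.33 and 5.28 in the 10 d overload pools, 5.12 and 5.58 in the 3 d inhibited pools and 5.09 and 4.92 in the 3 d overload pools, against 5.47 and 5.57 without overload. The pools lay 0.53 apart in the 10 d inhibited group and 0.46 apart in the 3 d inhibited group. The change of Cry1 was -0.52 ± 0.21 at 3 d (adjusted p = 0.141) and -0.17 ± 0.21 at 3 d with the inhibitor (adjusted p = 0.685).

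Nr1d2 and Nr1d1 encode the REV-ERB receptors, which repress Arntl. Nr1d2 read 8.0 and 8.30 in the 10 d inhibited pools and 8.14 and 8.11 in the 10 d overload pools. At 3 d it read 7.22 and 7.55 with the inhibitor and 7.45 and 7.60 without it, against 8.36 and 8.51 without overload. The 3 d pools were the 4 lowest and the unloaded pools the 2 highest. Nr1d2 fell at 3 d (-0.91 ± 0.17, adjusted p = 0.00675) and at 3 d with the inhibitor (-1.05 ± 0.17, adjusted p = 0.00470). Nr1d1 read 8.82 and 8.46 in the 10 d inhibited pools, 8.53 and 8.27 in the 10 d overload pools, 8.53 and 8.47 in the 3 d inhibited pools and 8.48 and 8.36 in the 3 d overload pools, against 8.86 and 9.14 without overload. Every overload pool was below both unloaded pools, and the 4 overload groups overlapped one another. The change of Nr1d1 was -0.58 ± 0.18 at 3 d (adjusted p = 0.0528) and -0.50 ± 0.18 at 3 d with the inhibitor (adjusted p = 0.100), short of the threshold.

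Clock encodes the DNA-binding partner of BMAL1, and its transcript varies little over the day in most tissues. It read 8.83 and 8.83 in the 10 d inhibited pools, 8.66 and 8.86 in the 10 d overload pools, 9.33 and 9.22 in the 3 d inhibited pools and 9.26 and 9.19 in the 3 d overload pools, against 8.87 and 8.97 without overload. It was the one clock gene whose 3 d pools all lay above the unloaded pools. Its change was 0.31 ± 0.13 at 3 d (adjusted p = 0.162) and 0.36 ± 0.13 at 3 d with the inhibitor (adjusted p = 0.121).

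**Figure D1:**
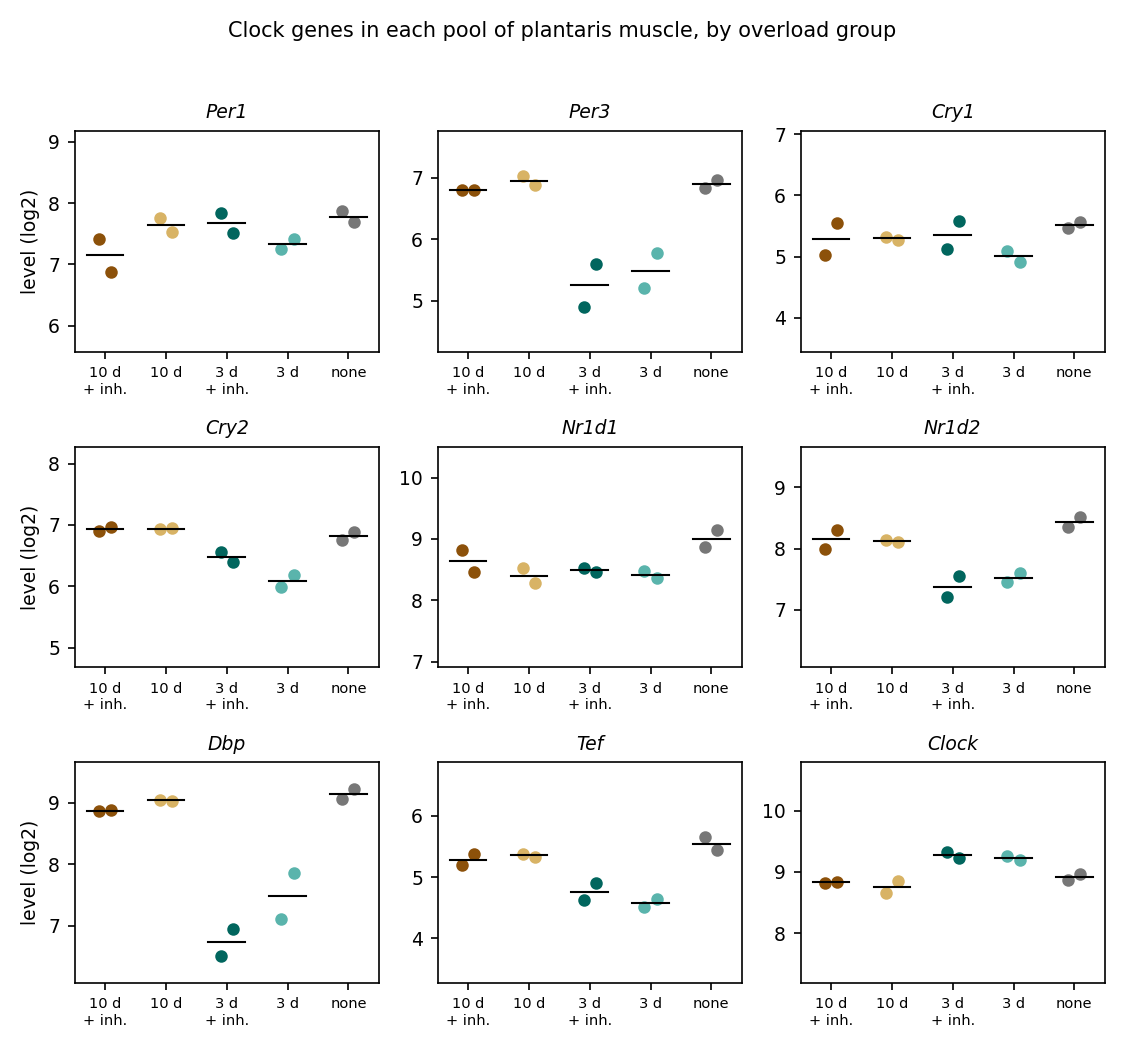
Log2 expression value of the brightest probe set of each of the 9 clock genes in every pool; each point is 1 pool of 4 muscles, the bars are means of the 2 pools, and groups run from 10 d inhibited overload at the left to no overload at the right. Dbp, Per3, Tef, Nr1d2 and Cry2 were lowest in the 4 pools of 3 d muscle, while Clock was highest there.

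Counted by pools, 8 of 9 clock genes had both 3 d overload pools below both unloaded pools, where 30.7% of all genes did. With the inhibitor the count was 6 of 9, against 26.4% of all genes. At 10 d the count was 6 of 9 without the inhibitor and 7 of 9 with it. The shares of all genes at 10 d are not given here, so nothing is read from the 10 d counts. Leaving out pool 1 of the 3 d overload group left 3 of the 5 calls at 3 d, with Cry2 at -0.64 (adjusted p = 0.0523) and Nr1d2 at -0.84 (adjusted p = 0.0518) just past the threshold. The tissue differed in more than clock genes at 3 d. All 8 markers of macrophages and monocytes rose in both 3 d groups, and their summed linear level was 2092 to 2381 in 3 d inhibited pools and 2467 to 2895 in 3 d overload pools, against 241 to 301 in unloaded pools. The summed level of the 8 fibre markers was 21765 to 22694 in 3 d inhibited pools and 23014 to 23692 in 3 d overload pools, against 26515 to 26626 in unloaded pools, and 2 of the 8 fell in each comparison. Summed markers of dividing cells were 184 to 188 in 3 d inhibited pools and 383 to 448 in 3 d overload pools, against 22.3 to 22.6 in unloaded pools. The part of cell composition in the clock gene changes was not tested, and in whole muscle fewer fibres and less RNA per fibre cannot be told apart.

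At 10 d Dbp, Per3, Tef, Nr1d2 and Cry2, which had fallen at 3 d, did not pass the test against no overload. In 10 d overload muscle the 9 changes ran from -0.60 to 0.12 with a median of -0.16, and over all genes the median was -0.04. By limma 0 of 9 passed the adjusted threshold, against 5.13% of all genes called. An unadjusted p under 0.05 was seen in 1 of 9, Nr1d1, against 20.3% of all genes. Nr1d1 differed by -0.60 ± 0.18 (adjusted p = 0.0908), and with the arrays shifted to a common gene median it passed. Dbp, with the largest change at 3 d, differed by -0.10 ± 0.24 at 10 d (95% interval -0.65 to 0.45, adjusted p = 0.874). Per3 differed by 0.06 ± 0.25 (adjusted p = 0.936) and Cry2 by 0.12 ± 0.14 (adjusted p = 0.683), and both signs turn under a common gene median. With the inhibitor at 10 d the 9 changes ran from -0.63 to 0.11 with a median of -0.26, against -0.02 over all genes. Again 0 of 9 passed, against 1.56% of all genes called. An unadjusted p under 0.05 was seen in 1 of 9, against 15.1% of all genes. That clock gene was Per1, at -0.63 ± 0.20 (adjusted p = 0.189), with pool 2 the lower of its pools.

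**Figure D2:**
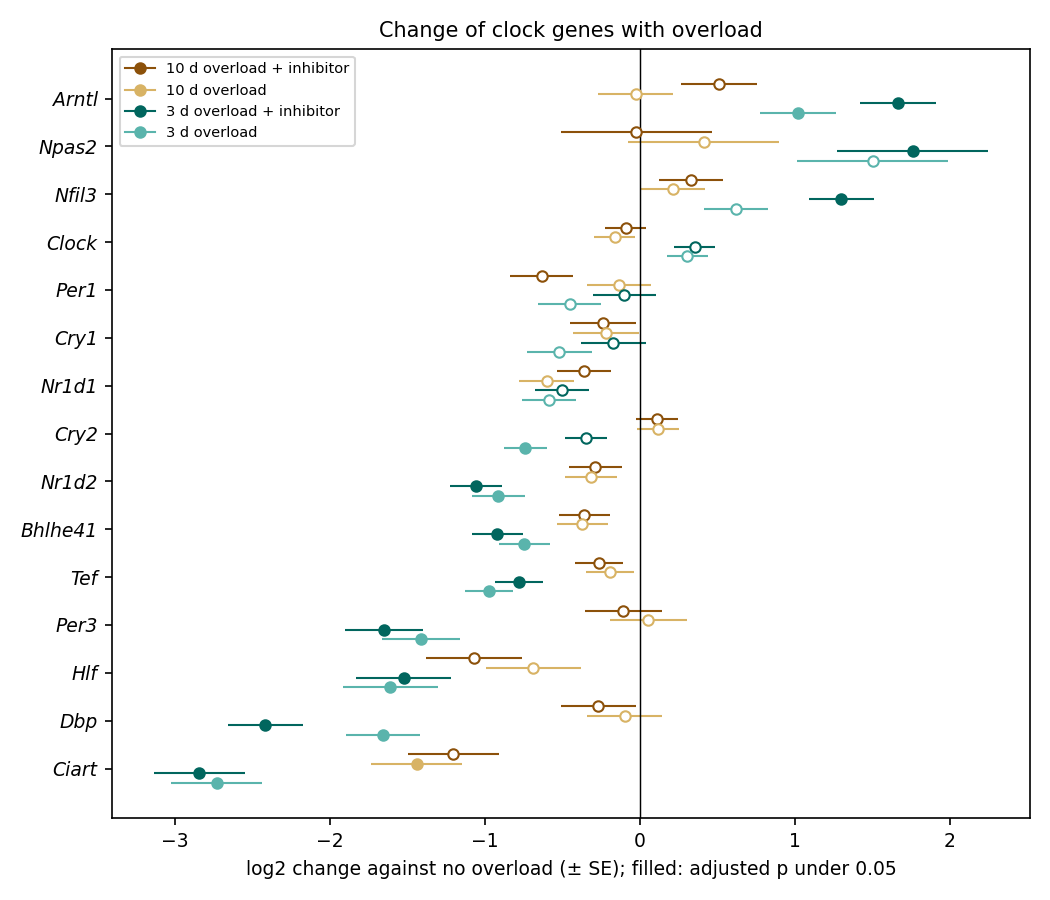
Log2 change against no overload for the clock genes and their partners in the 4 overload groups, with bars for ± 1 standard error of the limma fit; filled points have an adjusted p under 0.05 and open points do not. At 3 d the changes ran from Dbp and Ciart on the low side to Arntl and Npas2 on the high side. At 10 d most values lay nearer 0, with Ciart the lowest. Exceptions were Nr1d1 without the inhibitor (-0.60 at 10 d, -0.58 at 3 d) and, with it, Per1 (-0.63 and -0.10) and Cry1 (-0.24 and -0.17).

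The 2 times were compared directly. In 10 d relative to 3 d overload muscle, Dbp was higher by 1.56 ± 0.24 (adjusted p = 0.0107), Per3 by 1.47 ± 0.25 (adjusted p = 0.0149), Cry2 by 0.86 ± 0.14 (adjusted p = 0.0119) and Tef by 0.78 ± 0.15 (adjusted p = 0.0245). These 4 of 9 stand beside 2.70% of all genes called higher. Nr1d2 was at 0.60 ± 0.17 (adjusted p = 0.0775) and Clock at -0.47 ± 0.13 (adjusted p = 0.0779). The difference for Nr1d1 was -0.02 ± 0.18 (adjusted p = 0.976), and its pools at the 2 times overlapped. No call of the 4 held without pool 1 of the 3 d overload group, where Dbp was at 1.19 (adjusted p = 0.0521) and Cry2 at 0.76 (adjusted p = 0.0808), nor without pool 1 of the 10 d overload group. The call of Tef was also lost without either other pool of the 2 groups, and with the mean of its 2 probe sets (0.56, adjusted p = 0.0760), the dim one alone differing by 0.33. With the inhibitor, Dbp was higher at 10 d than at 3 d by 2.15 ± 0.24 (adjusted p = 0.00463), Per3 by 1.54 ± 0.25 (adjusted p = 0.0152) and Nr1d2 by 0.77 ± 0.17 (adjusted p = 0.0404). These 3 of 9 stand beside 1.98% of all genes called higher. The call of Nr1d2 was lost when any single pool was left out, and that of Per3 when pool 1 of the 3 d inhibited group or either pool of the 10 d inhibited group was.

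The inhibitor made no difference to a clock gene that passed the test at either time. At 3 d, limma called 0 of 9 clock genes and 0 of 22180 genes between inhibited and uninhibited overload, where 2011 genes (9.07%) had an unadjusted p under 0.05. The clock genes among those were Dbp and Cry2. Dbp was at -0.76 ± 0.24 (95% interval -1.31 to -0.21, adjusted p = 0.399), with both inhibited pools below both uninhibited ones. Cry2 was at 0.39 ± 0.14 (95% interval 0.08 to 0.70, adjusted p = 0.445), with both inhibited pools above. For Per3 the difference was -0.24 (95% interval -0.81 to 0.33), for Nr1d2 -0.14 (-0.53 to 0.24) and for Tef 0.19 (-0.16 to 0.54), intervals that include differences of 0.53 log2 units or more. At 10 d 0 of 9 clock genes passed, beside 23 genes (0.104%) over the array. Per1 was the only clock gene with an unadjusted p under 0.05 (-0.50 ± 0.20, adjusted p = 0.430), where 10.6% of all genes had one. In the mean over both times 0 of 9 passed and 1, Dbp, had an unadjusted p under 0.05 (-0.46, adjusted p = 0.299), beside 0.289% of all genes called. For the inhibitor effect at 10 d minus that at 3 d, limma called 0 of 9 clock genes and 0 of all genes (0.00%). Per1, at -0.85 ± 0.29 (adjusted p = 0.684), was the only clock gene with an unadjusted p under 0.05, where 6.47% of all genes had one.

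**Figure D3:**
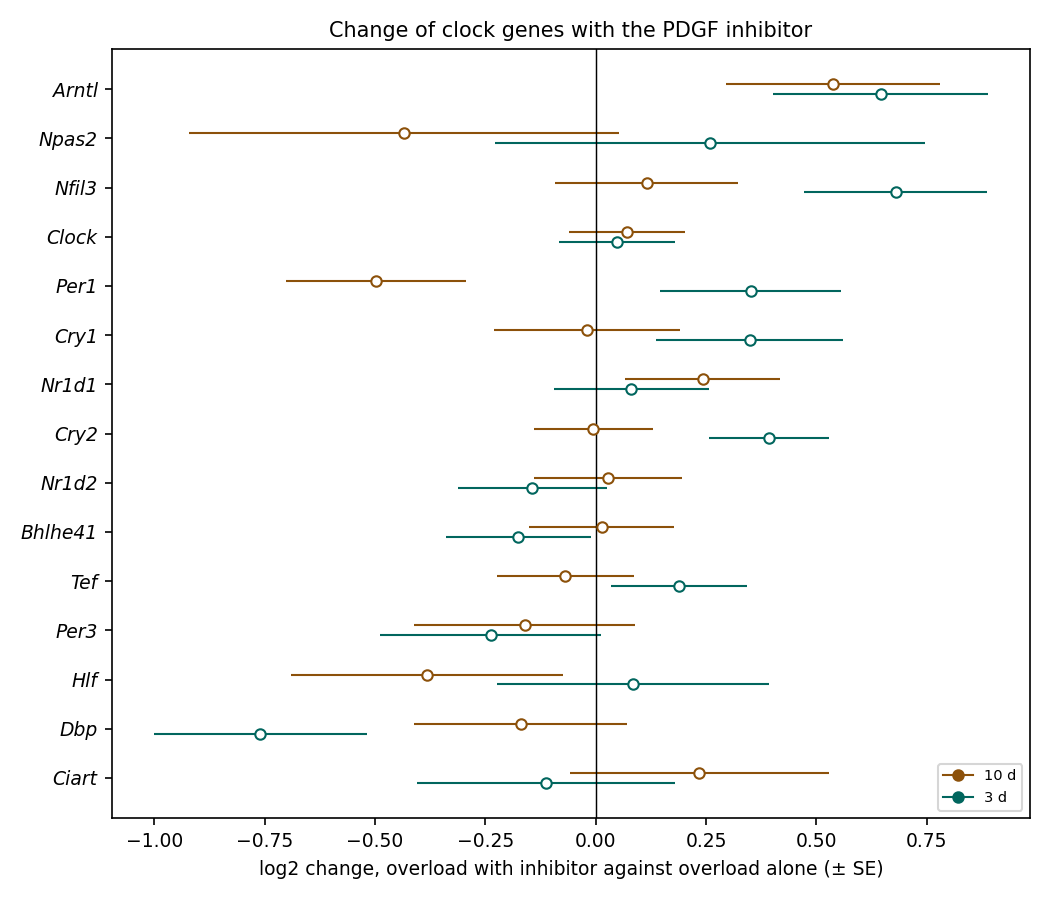
Log2 difference between overload with and without the inhibitor, at 10 d and at 3 d, for the clock genes and their partners, with bars for ± 1 standard error of the limma fit. All points are open because no adjusted p was under 0.05; Dbp at 3 d (-0.76) and Per1 at 10 d (-0.50) were the lowest clock genes at their times.

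Among the activators, Arntl encodes BMAL1. It read 6.99 and 6.55 in the 10 d inhibited pools and 6.26 and 6.21 in the 10 d overload pools. At 3 d it read 8.04 and 7.81 with the inhibitor and 7.64 and 6.92 without it, against 6.21 and 6.31 without overload. The 3 d inhibited pools were the highest, and the 2 uninhibited 3 d pools lay 0.72 apart. Arntl rose at 3 d (1.02 ± 0.24, adjusted p = 0.0207) and at 3 d with the inhibitor (1.67 ± 0.24, adjusted p = 0.00327). Without pool 1 of the 3 d overload group the change at 3 d was 0.66. The call at 3 d held in 7 of 10 fits without 1 pool, lost without that pool or either unloaded pool. It was also lost with only the arrays compared (adjusted p = 0.0704). The call at 3 d with the inhibitor held in all 10 fits. Arntl fell at 10 d relative to 3 d, with a change of -1.05 ± 0.24 (adjusted p = 0.0424) and, with the inhibitor, of -1.16 ± 0.24 (adjusted p = 0.0359). When single pools were left out these calls held in 1 and in 2 of 10 fits.

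Npas2, which can stand in for CLOCK, read 3.39 and 3.11 in the 10 d inhibited pools, 3.02 and 4.35 in the 10 d overload pools, 5.17 and 4.89 in the 3 d inhibited pools and 5.41 and 4.14 in the 3 d overload pools, against 3.55 and 2.99 without overload. The uninhibited overload pools lay more than 1 log2 unit apart at each time. Npas2 rose at 3 d with the inhibitor (1.76 ± 0.49, adjusted p = 0.0444; called in 4 of 10 fits without 1 pool), and without it the change was 1.50 ± 0.49 (adjusted p = 0.0692). Arntl2 encodes BMAL2, a relative of BMAL1. It read 4.41 and 4.16 in the 10 d inhibited pools, 4.68 and 3.75 in the 10 d overload pools, 3.74 and 3.52 in the 3 d inhibited pools and 3.78 and 3.98 in the 3 d overload pools, against 3.97 and 4.18 without overload. The change of Arntl2 was -0.19 ± 0.28 at 3 d (adjusted p = 0.718) and -0.44 ± 0.28 at 3 d with the inhibitor (adjusted p = 0.363). Of the 2 ROR receptor genes with a value, Rorb, dim at 1.91 to 2.63 log2 units, fell at 3 d with the inhibitor (-0.61 ± 0.17, adjusted p = 0.0490). That call was kept in 0 of 10 fits without 1 pool. In the same comparison Rora was at -0.08 ± 0.15 (adjusted p = 0.800). At 3 d without the inhibitor Rorb was at -0.55 and Rora at -0.44, and neither passed.

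Of 5 further repressors and bZIP partners, Ciart, Hlf and Bhlhe41 fell in both 3 d groups. Ciart, also called Chrono, read 5.60 and 5.29 in the 10 d inhibited pools and 5.50 and 4.92 in the 10 d overload pools. At 3 d it read 4.03 and 3.59 with the inhibitor and 3.54 and 4.30 without it, against 6.73 and 6.57 without overload. Every overload pool was below both unloaded pools, and the 3 d pools were the 4 lowest. Ciart fell at 3 d (-2.73 ± 0.29, adjusted p = 6.43e-04), at 3 d with the inhibitor (-2.84 ± 0.29, adjusted p = 7.64e-04) and at 10 d (-1.44 ± 0.29, adjusted p = 0.0298), and was at -1.20 ± 0.29 at 10 d with the inhibitor (adjusted p = 0.0917). The 3 d calls held without any single pool, and the 10 d call in 7 of 10 such fits, lost without pool 2 of the 10 d overload group or either unloaded pool. Macrophage markers, summed as above, were at 639 to 706 in 10 d inhibited pools and 807 to 1148 in 10 d overload pools, and their part in the change of Ciart was not tested. Hlf, the third PAR bZIP gene, fell at 3 d (-1.61 ± 0.31, adjusted p = 0.00775) and at 3 d with the inhibitor (-1.52 ± 0.31, adjusted p = 0.0130). Its pools read 3.05 to 3.91 in 3 d inhibited muscle and 3.15 to 3.64 in 3 d overload muscle, against 4.75 to 5.26 without overload. Bhlhe41 (DEC2), a repressor that competes at E-boxes, fell by 0.74 ± 0.16 at 3 d (adjusted p = 0.0146) and by 0.92 ± 0.16 at 3 d with the inhibitor (adjusted p = 0.00760). Each call of Hlf and Bhlhe41 held in 8 of 10 fits without 1 pool. At 3 d both were lost without pool 1 of the 3 d overload group, and with the inhibitor both were lost without pool 1 of the 3 d inhibited group.

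Nfil3, which opposes DBP and TEF at D-boxes, rose at 3 d with the inhibitor. It read 5.62 and 5.37 in the 10 d inhibited pools, 5.57 and 5.19 in the 10 d overload pools, 6.42 and 6.51 in the 3 d inhibited pools and 6.02 and 5.55 in the 3 d overload pools, against 5.29 and 5.03 without overload. The 3 d inhibited pools were the 2 highest. Its change at 3 d with the inhibitor was 1.30 ± 0.21 (adjusted p = 0.00459), and without it the change was 0.62 ± 0.21 (adjusted p = 0.0759). The direct difference with the inhibitor at 3 d was 0.68 ± 0.21 (adjusted p = 0.378). At 3 d with the inhibitor the 3 D-box activators Dbp, Tef and Hlf were lower, and the D-box repressor Nfil3 was higher, than without overload.

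**Figure D4:**
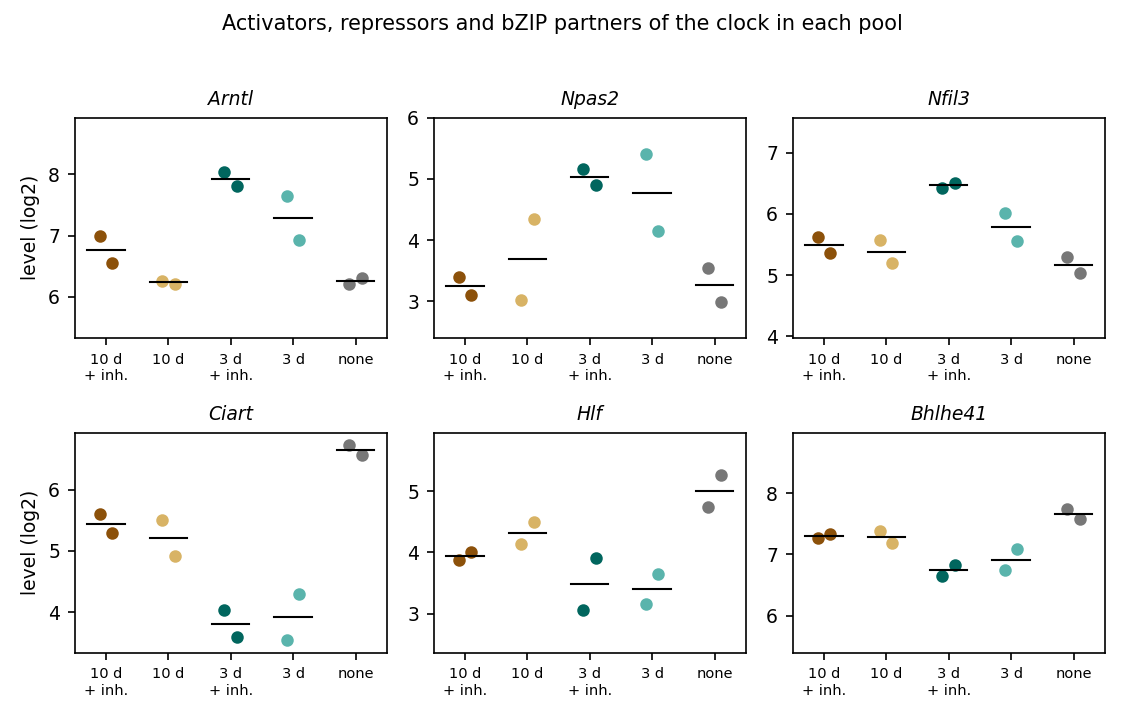
Log2 expression value in every pool for the activators, further repressors and bZIP partners of the clock genes; each point is 1 pool of 4 muscles and the bars are means of the 2 pools. Arntl, Npas2 and Nfil3 had their highest group means in 3 d muscle, Ciart, Hlf and Bhlhe41 their lowest, and Ciart at 10 d lay between its 3 d and its unloaded levels.

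Other lists are read against the genes of the array called higher, 9.31% at 3 d, 7.71% at 3 d with the inhibitor and 3.90% at 10 d, and the shares called lower given above. Of 9 genes with daily rhythms in many mouse tissues, 4 fell at 3 d, with a median change of -0.34 over the 9. They were Klf9, a glucocorticoid-induced repressor (-1.14 ± 0.13, adjusted p = 7.76e-04), Usp2, a deubiquitinase (-0.77 ± 0.13, adjusted p = 0.00484), Alas1, which starts haem synthesis (-0.72 ± 0.15, adjusted p = 0.0113), and Nampt, which makes the precursor of NAD (-0.55 ± 0.16, adjusted p = 0.0450). With the inhibitor 3 of the 9 fell at 3 d, namely Klf9, Alas1 and Usp2, with a median of -0.42. The call of Nampt held in 2 of 10 fits without 1 pool and that of Alas1 at 3 d in 8. At 10 d 2 of the 9 rose, Cys1 (1.07 ± 0.21, adjusted p = 0.0243) and Wee1, a kinase that holds back mitosis (0.74 ± 0.17, adjusted p = 0.0464). Without single pools these calls held in 7 of 10 fits for Cys1 and in 2 of 10 for Wee1.

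Of 9 genes named as targets of the muscle clock, 5 fell and 1 rose at 3 d, and the median change was -0.63. The largest were Ucp3, a mitochondrial carrier (-1.70 ± 0.39, adjusted p = 0.0170), Klf15 (-1.58 ± 0.24, adjusted p = 0.00281), Slc2a4, the insulin-responsive glucose transporter GLUT4 (-1.12 ± 0.17, adjusted p = 0.00304), and Myod1, the myogenic factor that rose (1.07 ± 0.22, adjusted p = 0.0104). With the inhibitor at 3 d the counts were also 5 lower and 1 higher, with a median of -0.64. Myod1 is also a marker of myoblasts, of which 3 of 5 markers rose in each 3 d group. At 3 d the calls of Ucp3 and Myod1 held in 8 of 10 fits without 1 pool, and those of Klf15 and Slc2a4 in all 10.

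Glucocorticoids and immediate early signals reach Per1 and other clock genes, so their known targets were read beside it. Of 8 glucocorticoid-responsive genes at 3 d, 2 rose, the metallothioneins Mt2 (3.61 ± 0.19, adjusted p = 4.31e-05) and Mt1 (1.91 ± 0.17, adjusted p = 2.90e-04), and 2 fell, Klf9 and Sgk1 (-0.67 ± 0.17, adjusted p = 0.0240). With the inhibitor at 3 d 3 rose, Mt2, Mt1 and Fkbp5 (1.05 ± 0.18, adjusted p = 0.00677), and Klf9 fell. The call of Sgk1 held in 7 of 10 fits without 1 pool, and that of Fkbp5 in 9. Of 7 immediate early genes at 3 d, 4 rose and 1 fell, with a median of 1.31. Among them Atf3 rose by 3.73 ± 0.27 (adjusted p = 1.32e-04), Egr1 by 1.73 ± 0.25 (adjusted p = 0.00205) and Junb by 1.48 ± 0.26 (adjusted p = 0.00513), and Nr4a1 fell by 1.34 ± 0.23 (adjusted p = 0.00481). The fourth that rose was Fos (1.31 ± 0.39, adjusted p = 0.0490), a call that held in 3 of 10 fits without 1 pool. With the inhibitor at 3 d 4 rose, Atf3, Fos (2.61 ± 0.39, adjusted p = 0.00344), Egr1 and Junb, with a median of 1.71, and Nr4a1 was at -0.64 ± 0.23 (adjusted p = 0.108). Of 5 measured kinases and other modifiers of clock proteins, Gsk3b, a kinase of several clock proteins, rose at 3 d with the inhibitor (0.53 ± 0.13, adjusted p = 0.0302), called in 6 of 10 fits without 1 pool, with a median of 0.09 over the 5.

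For each clock gene that changed in some comparison, the 2 most similar genes were found by the root mean square difference of mean-centred log2 values over the 10 arrays, among 10400 brighter named genes. Dbp was nearest to Gpd1 (0.21) and Slc41a3 (0.23), where the median over candidates was 1.01. Per3 was nearest to Trp53inp2 (0.19) and Mylk4 (0.20), with a median of 0.80. Nr1d2 was nearest to Pfkm, the muscle phosphofructokinase (0.060), and Dpf3 (0.087), with a median of 0.47. Cry2 was nearest to Tmem150a (0.088) and C1qtnf9 (0.11), and Tef to Abcb6 (0.071) and Arl3 (0.077).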

How the data were processed

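The deposited table holds log2 values of 41345 probe sets on 10 arrays. The submitters' processing notes name RMA, oligo and limma, without versions. RMA subtracts background, equalizes intensity distributions between arrays and combines probes, which compresses changes of dim genes. The labels name 2 different labelling kits for every sample. The sources used here give no strip, scan date or harvest time. Nothing in the labels says that the pools of a group are of separate animals, and p-values reflect the spread between such pools alone, which may be technical. The number of arrays limits the precision.

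Groups came from the sample titles, and pool numbers are names only. Each of the 22180 genes was fitted in limma 3.58.1 (R 4.3.3) with 1 coefficient per group over 10 arrays, without a filter, and tested with empirical Bayes moderation and Benjamini-Hochberg adjustment. The fit was tested on simulated data. All 10 clock genes were to be named, with every called activator, ROR, repressor or bZIP gene, up to 4 called genes of each other list, and 2 genes of like pattern. Members and lists were chosen with earlier results of these data known. Alternatives were another array scaling, the mean of probe sets, a variance trend, only the arrays compared, a filter on dim genes, array weights and leaving out each pool. A common median over the tested genes was added after seeing the data.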

Additional observations from a re-analysis of the deposited data

How the results depend on the processing

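Each result, and each listed gene that is named, was recomputed under 17 alternatives (16 where the filter removed a dim gene), 10 of which leave out 1 pool. Of 16 called changes of clock genes, 7 were called in every alternative, and none of the 16 changed sign. Leaving out 1 pool at a time gave 3 to 5 called clock genes at 3 d (5 with all arrays), 3 to 4 at 3 d with the inhibitor (4), 0 to 4 for 10 d against 3 d (4) and 1 to 2 for 10 d against 3 d with the inhibitor (3). It gave 0 at 10 d with and without the inhibitor and 0 in each inhibitor comparison. Against no overload at 10 d, 1 clock gene, Nr1d1, passed with the variance trend, with dim genes left out or with a common gene median. At 10 d with the inhibitor 1, Per1, passed with the variance trend. At 3 d the alternatives that keep all pools gave 5 to 7, and at 3 d with the inhibitor 3 to 6. For 10 d against 3 d, 0 passed with only the arrays compared, 3 with the mean of probe sets, and 6 with the trend or with dim genes left out. With the inhibitor the count was 5 with the trend, 1 with only the arrays compared and 6 with dim genes left out. Apart from the alternatives' own construction (fewer genes or arrays), the cause was not tested. The common gene median turned 2066 higher and 1815 lower genes at 3 d into 1567 and 3295, and Cry1 and Nr1d1 then passed as lower. It turned 865 higher and 273 lower genes at 10 d into 678 and 896. The genes called over the array ranged, without single pools and under the other alternatives, from 2146 to 4862 at 3 d (3881), 1343 to 4012 at 3 d with the inhibitor (3154), 31 to 2115 at 10 d (1138), 31 to 1068 at 10 d with it (345), 202 to 2458 for 10 d against 3 d (1348) and 123 to 2012 with the inhibitor (1031). They ranged from 0 to 14 for the inhibitor at 3 d (0), 0 to 180 at 10 d (23), 0 to 455 for the mean effect (64) and 0 to 14 for the difference (0). No paired analysis was possible because pool numbers are names only. Dim genes such as Rorb lie where RMA compresses changes. The same may hold for Npas2, which the filter on dim genes kept. Its unloaded pools, at 3.55 and 2.99, lay near the median level of all genes, 3.13. It may hold for Hlf too, whose 3 d pools read 3.05 and 3.91 with the inhibitor and 3.15 and 3.64 without it.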

Other observations

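The gap between the 2 pools of a group varied among the clock genes. In the 3 d inhibited group the median gap of the 9 clock genes was 0.32 log2 units, against 0.15 over the brighter genes, and the largest was that of Per3 (0.70). In the 3 d overload group the median gap was 0.16, as over the brighter genes (0.16), and the largest was that of Dbp (0.74), a gap larger than that of 97.3% of the brighter genes. In the 10 d overload group the median gap was 0.05, against 0.18 over the brighter genes. Pool 1 lay farther from the unloaded mean than pool 2 in 5 of 9 clock genes in the 10 d inhibited group (54.4% of all genes), 2 of 9 in the 10 d overload group (41.8%), 6 of 9 in the 3 d inhibited group (53.5%) and 7 of 9 in the 3 d overload group (53.1%).

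The pools of 3 d overload differed in granulocyte genes. The summed linear level of 6 neutrophil and granulocyte precursor markers was 99.6 to 293 in 3 d overload pools, against 33.3 to 34.0 in unloaded pools. Each marker read higher in pool 1 of 3 d overload than in pool 2, with Elane at 5.21 and 1.37 and Mpo at 5.02 and 1.33. In 7 of 9 clock genes the same pool 1 lay farther from the unloaded mean, and it is the pool left out in several fits above. The part of the granulocyte genes in the pool gaps of the clock genes was not tested.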
